A study of Homo sapiens with 15 samples.

Results

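The RNA levels of 7 genes of the RAS and RAF-MEK-ERK pathway were described in 15 poly(A) RNA-seq libraries of MCF-10A, an established human line of breast epithelial cells that forms no tumors. The genes were HRAS, NRAS, RRAS and MRAS, which encode RAS-type GTPases, and BRAF, MAP2K1 and MAPK3, which encode a RAF, a MEK and an ERK kinase. They were taken by symbol from the 60721 genes in the count and CPM tables, without use of any measured value, and all 7 had enough counts to be tested. The libraries came from 5 genotypes with 3 biological replicates each: parental cells, empty-vector cells, cells edited at NF1 with guide 1, cells edited with guide 2, and cells edited with guides 1 and 2 together. No genotype was treated, and all of them grew in the same medium with horse serum, EGF, hydrocortisone, cholera toxin and insulin. EGF, present for every group, is itself a ligand that activates this pathway. The labels do not say whether a line is 1 clone or a pool, or whether replicates of a line were cultured separately, so p-values measure the spread between these libraries.

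RAS proteins are membrane-bound switches that are active with GTP and inactive with GDP. Active RAS recruits RAF kinases, RAF phosphorylates MEK, and MEK phosphorylates ERK, which acts on transcription factors and other kinases. NF1 encodes neurofibromin, which speeds the hydrolysis of GTP by RAS and so turns the switch off. The switch and the kinases are governed mainly by nucleotide and phosphate, and RNA levels measure neither; they show how much transcript of each component the cells held.

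The promoters of HRAS and MAPK3 are shown because the RNA levels of these 2 genes had the lowest Pearson correlation of any pair of the 7 over all 15 libraries (5 other pairs were more opposed by Spearman correlation). Each stretch is from the RefSeq promoter table (GRCh38.p14), is read 5′ to 3′ on the minus strand, and is the part of the window before the start site that lies outside GENCODE exons. HRAS covers 250 bases at chr11:535577-535826 and MAPK3 covers 161 bases at chr16:30123310-30123470. Capitals mark the GC box, GGGCGG, or its complement CCGCCC on the other strand.
HRAS: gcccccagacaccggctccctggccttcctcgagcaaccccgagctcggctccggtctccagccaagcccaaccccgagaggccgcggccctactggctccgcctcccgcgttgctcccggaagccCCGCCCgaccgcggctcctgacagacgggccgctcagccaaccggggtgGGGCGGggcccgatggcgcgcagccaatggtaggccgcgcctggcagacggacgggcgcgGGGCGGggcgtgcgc
MAPK3: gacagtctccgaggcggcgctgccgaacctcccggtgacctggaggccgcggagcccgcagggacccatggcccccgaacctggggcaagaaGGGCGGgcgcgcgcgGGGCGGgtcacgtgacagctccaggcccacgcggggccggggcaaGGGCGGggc

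Both stretches hold 3 GC boxes, and both are rich in G and C (77.2% in HRAS and 78.3% in MAPK3). Promoter windows of 300 bases were found for 6 of the 7 genes (9 windows); RRAS was not matched. Counted on both strands, overlapping matches included, the full windows held 8 GC boxes in MAPK3, 5 in HRAS, 3 in NRAS, 3 at the upstream start of MAP2K1 and none in BRAF. MRAS has 3 windows, with 1, 5 and 2 GC boxes. GGGCGG was present in 45.0% of the 35116 promoter windows in the table. Further motifs were searched in the same way: CCAAT (34.6% of all windows), the E-box CACCTG (20.6%), the ETS motif CCGGAAG (10.3%) and the AP-1 motif TGANTCA (7.71%). CCAAT matched 2 times in BRAF, 1 time in HRAS and 1 time at the upstream start of MAP2K1, where the E-box also matched 1 time. HRAS and NRAS had 1 ETS match each, and no window of a member held the AP-1 letters. A match of letters is a description of the sequence only.

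All 7 members lie on autosomes of GRCh38 as annotated by GENCODE release 29. HRAS (ENSG00000174775) is at chr11:532242-537287, NRAS (ENSG00000213281) at chr1:114704469-114716894 and RRAS (ENSG00000126458) at chr19:49635292-49640201, all on the minus strand. MRAS (ENSG00000158186) is at chr3:138347648-138405534 on the plus strand. BRAF (ENSG00000157764) is at chr7:140719327-140924928 on the minus strand, MAP2K1 (ENSG00000169032) at chr15:66386817-66492312 on the plus strand and MAPK3 (ENSG00000102882) at chr16:30114105-30123506 on the minus strand. BRAF overlaps 2 genes on the opposite strand (NDUFB2 and RNU6-85P), and MAP2K1 overlaps 4, among them SNAPC5. Whether the counting used strand is not given in the sources used here, so reads of these neighbours cannot be told apart from reads of BRAF and MAP2K1 in the overlaps. The pseudogenes BRAFP1 and MAP2K1P1 reached at most 0.018 and 0.087 CPM.

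Library totals lay between 46129559 and 78976917 counts, and a floor of 3 counts corresponds to 0.038 to 0.065 CPM, which covers counting error only. The lowest count of any member was 306 (MRAS in guide 2 replicate 2), so every member was far above that floor in every library. NF1 RNA checked the labels: it was 115 to 159 CPM in the 6 unedited libraries and 26.0 to 51.3 CPM in the 9 edited libraries, with no overlap. One library stood apart from its group. Guide 2 replicate 2 had a score of 91.9 on the first principal component (46.4% of the variance), against -46.0 and -47.8 for guide 2 replicates 1 and 3, while its NF1 level of 31.4 CPM was like theirs (27.0 and 29.8 CPM). The epithelial label was checked against markers. KRT8 and KRT18 were at 70.2 CPM or more in every library. EPCAM ranged from 1.85 to 103 CPM and CLDN4 only from 0.108 to 1.38 CPM. CDH1, which encodes E-cadherin, was between 0.019 and 0.158 CPM in the 3 guide 1 libraries and in guide 2 replicates 1 and 3, at 1.79 CPM in parental replicate 2, and at 14.8 CPM or more in the other 9 libraries. Among 7 basal markers, KRT5 was at 625 CPM or more in every library, while TP63 ranged from 0.054 to 75.8 and KRT14 from 6.44 to 1147 CPM. Of the markers of other cell types, 4 of 5 immune, 2 of 4 endothelial and 2 of 2 adipocyte genes stayed under 1 CPM in every library. Mesenchymal markers did so in only 1 of 8 genes, with VIM at 866 to 2289 and FN1 at 2818 to 18543 CPM. In bulk RNA, fewer cells of a type and less RNA per cell cannot be told apart.

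The members differed widely in level. Per kilobase of exon, in empty-vector cells, MAP2K1 had the highest level (47.9 ± 3.13 CPM per kb) and NRAS the next (31.2 ± 3.81), followed by RRAS (19.6 ± 1.14) and HRAS (19.5 ± 2.78; SD, n = 3 for each). MAPK3 (5.37 ± 0.764), MRAS (2.81 ± 0.241) and BRAF (1.17 ± 0.0546; SD, n = 3 for each) were far lower. MAP2K1 and NRAS therefore led the set, while RRAS and HRAS differed by less than their spread. With the longest transcript in place of all exons as the length, HRAS stood at 29.3 and BRAF at 2.87 CPM per kb, which put HRAS above RRAS (21.8) and left BRAF lowest.

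Among the RAS GTPases, HRAS encodes a classical RAS protein that cycles between the plasma membrane and the Golgi. HRAS was at 50.02, 28.999 and 33.3 CPM in parental replicates 1, 2 and 3 and at 31.6, 34.9 and 41.7 CPM in the empty-vector libraries. It was at 25.1, 23.5 and 27.0 CPM in guide 1 cells, at 30.3, 66.9 and 27.1 CPM in guide 2 cells and at 29.96, 29.5 and 32.9 CPM in cells with both guides. The guide 1 libraries were below every empty-vector and every parental library, and guide 2 replicate 2 was the highest of the 15. The order of the group means was guide 2 (41.4 ± 22.1 CPM), parental (37.4 ± 11.1), empty vector (36.1 ± 5.15), guides 1 and 2 (30.8 ± 1.87) and guide 1 (25.2 ± 1.77; SD, n = 3 for each), and no pair of groups passed the test.

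NRAS encodes a further classical RAS protein and had the highest CPM of the 4 GTPases. NRAS was at 163, 129 and 163 CPM in parental and 135, 124 and 157 CPM in empty-vector libraries. In the edited lines it was at 103, 88.8 and 125 CPM with guide 1, 116, 159.9 and 115 CPM with guide 2, and 126, 138 and 111 CPM with both guides. All guide 1 libraries were below all parental libraries, and they overlapped the empty-vector libraries only through replicate 3. The group means ran from 151.6 ± 19.9 CPM in parental cells through 138.6 ± 17.0 (empty vector), 130.3 ± 25.6 (guide 2) and 125 ± 13.8 (guides 1 and 2) to 106 ± 18.2 CPM in guide 1 cells (SD, n = 3 for each), and no pair of groups passed the test.

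RRAS encodes a RAS-related GTPase known for its part in integrin-mediated adhesion. RRAS was at 19.5, 26.9 and 21.5 CPM in parental, 21.4, 22.7 and 24.1 CPM in empty-vector and 27.99, 28.7 and 22.1 CPM in guide 1 libraries. It was at 29.3, 14.2 and 27.5 CPM with guide 2 and at 24.3, 25.0 and 25.1 CPM with both guides. The lowest and the highest of the 15 libraries were both guide 2 libraries (replicates 2 and 1), and the group means spanned only 22.6 ± 3.82 CPM in parental to 26.2 ± 3.63 CPM in guide 1 cells (SD, n = 3 each).

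MRAS encodes a GTPase that, with SHOC2 and a phosphatase, removes an inhibitory phosphate from RAF. MRAS was at 17.5, 19.6 and 16.6 CPM in empty-vector libraries, above all parental libraries (9.33, 14.4 and 12.4 CPM). It was at 17.1, 19.2 and 12.9 CPM with guide 1, 14.9, 5.55 and 15.2 CPM with guide 2, and 13.8, 14.8 and 14.8 CPM with both guides. The empty vector had the highest mean (17.9 ± 1.54 CPM), then guide 1 (16.4 ± 3.17), guides 1 and 2 (14.5 ± 0.577), parental (12.1 ± 2.55) and guide 2 (11.9 ± 5.47; SD, n = 3 for each). No pair of groups passed the test for MRAS.

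Among the kinases, BRAF, the RAF kinase with the highest basal activity, differed little between groups. BRAF was at 32.9, 28.3 and 31.5 CPM in parental, 27.8, 26.1 and 28.6 CPM in empty-vector and 26.5, 25.3 and 28.4 CPM in guide 1 libraries. It was at 23.1, 31.6 and 26.4 CPM with guide 2 and 27.6, 26.6 and 24.7 CPM with both guides. The group means lay between 26.3 ± 1.46 CPM (guides 1 and 2) and 30.9 ± 2.33 CPM (parental; SD, n = 3 each), and the highest library had 1.42 times the level of the lowest.

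MAP2K1 encodes MEK1, the kinase that phosphorylates ERK. MAP2K1 was at 138, 141 and 155 CPM in parental libraries and at 174, 172 and 193 CPM in empty-vector libraries, without overlap. It was at 147, 140.2 and 165 CPM with guide 1, 168, 148 and 160.2 CPM with guide 2, and 173, 178 and 182 CPM with both guides. The libraries thus fell into an order of empty vector (179.9 ± 11.8 CPM), guides 1 and 2 (177 ± 4.40), guide 2 (159 ± 9.69), guide 1 (151 ± 12.9) and parental (145 ± 9.06; SD, n = 3 for each). Neighbours in that order did not pass the test, whereas its ends did.

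MAPK3 encodes ERK1, the last kinase of the cascade. MAPK3 was at 12.6, 24.1 and 17.6 CPM in parental, 21.9, 20.6 and 16.6 CPM in empty-vector and 21.6, 21.2 and 20.6 CPM in guide 1 libraries. It was at 23.1, 6.83 and 21.7 CPM with guide 2 and 18.8, 18.5 and 19.4 CPM with both guides. Its lowest value was in guide 2 replicate 2 and the next lowest in parental replicate 1, the 2 libraries in which HRAS was highest. The group means lay between 17.2 ± 9.02 CPM (guide 2) and 21.2 ± 0.484 CPM (guide 1; SD, n = 3 each).

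**Figure D1:**
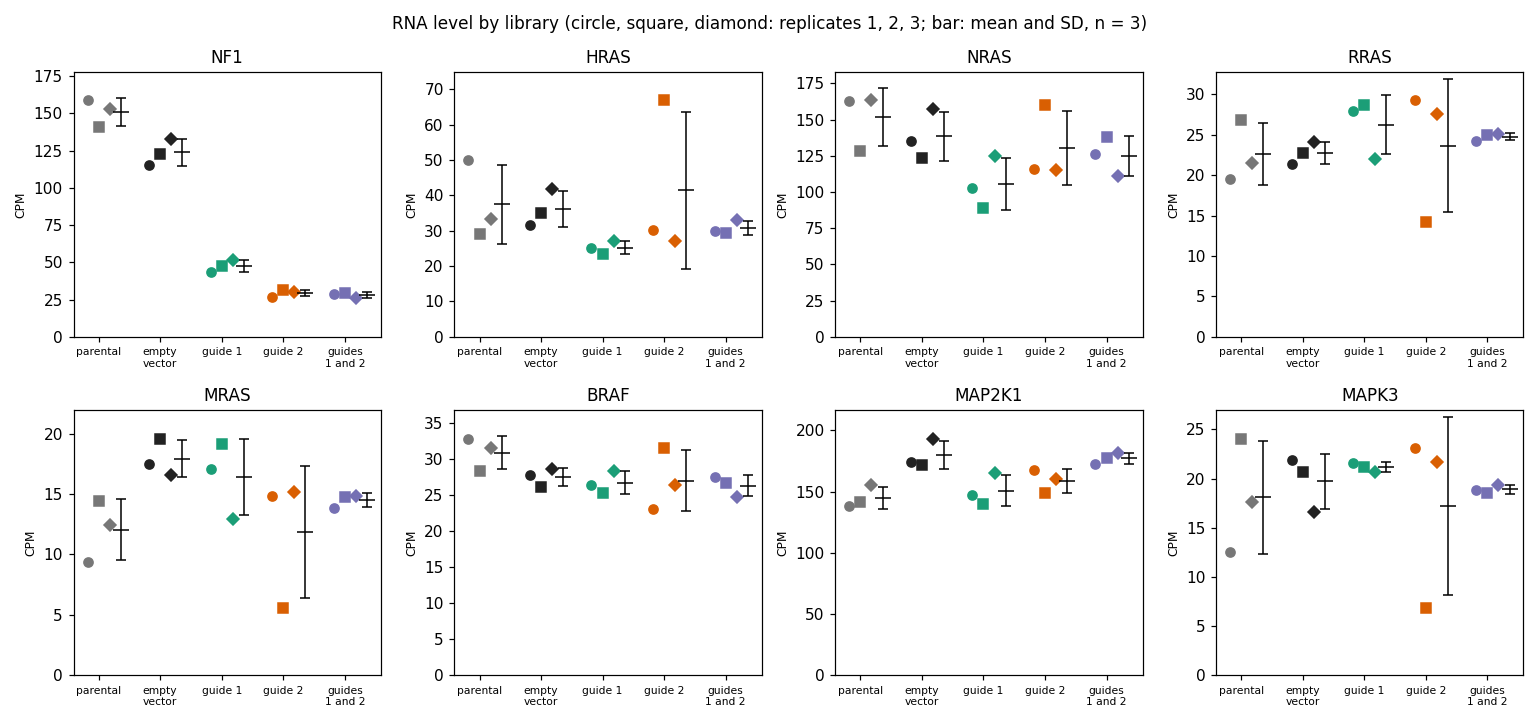
RNA level in CPM (vertical axes, linear from 0) of NF1 and the 7 members in each of the 15 libraries, grouped by genotype; circles, squares and diamonds are replicates 1, 2 and 3, and bars give the mean and SD (n = 3). NF1 separates edited from unedited libraries, while in HRAS, RRAS, MRAS and MAPK3 the guide 2 square (replicate 2) lies far from the other guide 2 points.

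The edited lines were compared with the empty vector to ask whether cells with less NF1 RNA held other amounts of these transcripts. By edgeR's quasi-likelihood test over 17457 genes, with Benjamini-Hochberg adjustment and a threshold of 0.05, 0 of 7 members passed in guide 1 cells, where 5.88% of all genes passed. The count was also 0 of 7 in guide 2 cells (3.94% of all genes) and 0 of 7 in cells with guides 1 and 2 (0.962% of all genes). At an unadjusted p under 0.05 the counts were 2, 1 and 0 members, where 3737, 3293 and 2444 of the 17457 genes passed. DESeq2 gave 1, 0 and 0 (9.47%, 6.70% and 3.74% of all genes), and limma's voom with sample quality weights gave 4, 2 and 1, where it called 42.5%, 33.2% and 26.7% of all genes.

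In guide 1 cells the lowest fold changes were those of HRAS and NRAS. HRAS had a log2 fold change of -0.53 (SE 0.287, 95% interval -1.15 to 0.09, edgeR adjusted p 0.312) and its libraries did not overlap the empty vector. NRAS had -0.41 (SE 0.159, interval -0.75 to -0.06, edgeR adjusted p 0.158). MAP2K1 had -0.27 (SE 0.0821, interval -0.44 to -0.09, edgeR adjusted p 0.0758), also without overlap. So 2 of 7 members had separate libraries, all on the lower side, where 36.2% of all genes had separate libraries in either direction. The other members were nearer to 0: RRAS at 0.20, MRAS at -0.13, MAPK3 at 0.09 and BRAF at -0.05 on the log2 scale, with edgeR adjusted p from 0.650 to 0.905. The median log2 fold change of the 7 members was -0.13, against 0.02 over all genes tested.

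In guide 2 cells MRAS had the lowest fold change, -0.60 on the log2 scale (SE 0.297, interval -1.24 to 0.04, edgeR adjusted p 0.299), and -0.28 without guide 2 replicate 2. MAP2K1 had -0.19 (SE 0.0821, interval -0.37 to -0.02, edgeR adjusted p 0.220). The libraries of these 2 of 7 members did not overlap the empty vector, as in 23.1% of all genes. HRAS stood at 0.18, RRAS at 0.05, BRAF at -0.04, NRAS at -0.11 and MAPK3 at -0.20, with edgeR adjusted p from 0.781 to 0.936. The members' median was -0.11, against 0.03 over all genes.

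In cells with guides 1 and 2 the fold changes were the smallest of the 3 lines for MAP2K1 (-0.04, SE 0.0820, interval -0.22 to 0.13). MRAS had -0.33 (interval -0.97 to 0.31) with all 3 libraries below the empty vector, and RRAS had 0.10 (interval -0.37 to 0.58) with all 3 above it. These 2 of 7 members compare with 37.7% of all genes whose libraries did not overlap. HRAS was at -0.25, NRAS at -0.17, BRAF at -0.09 and MAPK3 at -0.08, and over the 7 members edgeR adjusted p lay between 0.712 and 0.963. The members' median was -0.09, against -0.00114 over all genes.

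Parental cells were compared with the empty vector to show how far the 2 unedited controls differ. MAP2K1 was lower in parental cells by 0.34 on the log2 scale (log2 fold change -0.34, SE 0.0821, interval -0.52 to -0.17, edgeR adjusted p 0.0342), in 3 of 3 libraries against 3 of 3. It was the only one of the 7 members to pass in any of the 11 comparisons, and 4.37% of all genes passed in this comparison. MRAS had -0.60 (SE 0.297, interval -1.24 to 0.04, edgeR adjusted p 0.287). The libraries of MAP2K1 and MRAS did not overlap between the controls, 2 of 7 members, as in 32.1% of all genes. BRAF was at 0.14, NRAS at 0.10, HRAS at 0.02, RRAS at -0.04 and MAPK3 at -0.15, with edgeR adjusted p from 0.527 to 0.979. The MAP2K1 call was not made without the filter on low counts (edgeR adjusted p 0.0787), nor in 9 of the 15 fits that each left out 1 library, namely any parental, empty-vector or guides 1 and 2 library (0.0528 to 0.141). With voom in limma it was called at a smaller log2 fold change (-0.22, adjusted p 0.00213).

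**Figure D2:**
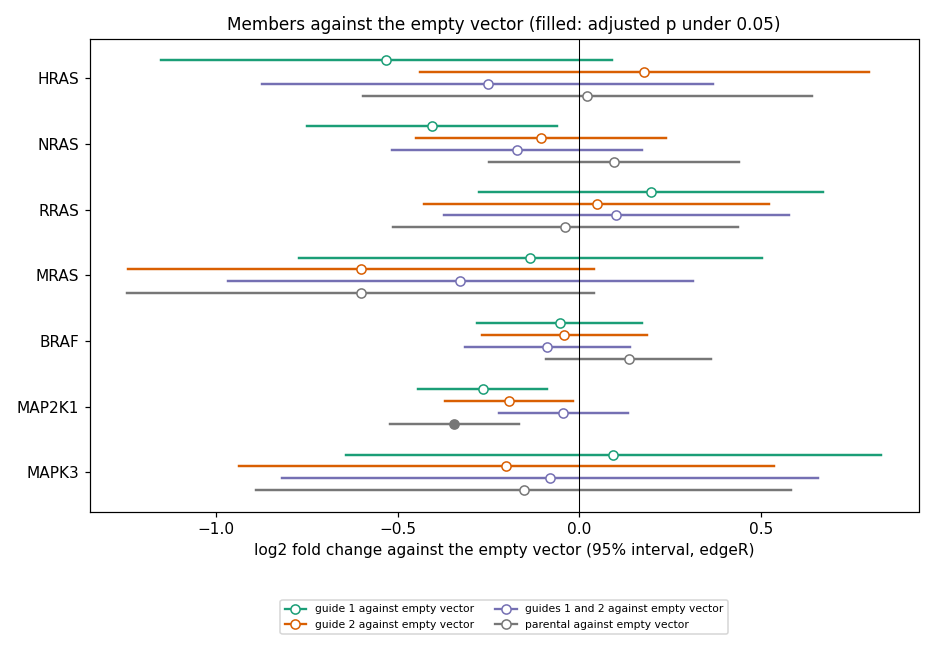
Log2 fold change (horizontal axis) of each member against the empty vector by edgeR, for guide 1, guide 2, guides 1 and 2 and parental cells; lines are 95% intervals and a filled point has an adjusted p under 0.05. The filled point is MAP2K1 in parental cells at -0.34, and the intervals of HRAS, MRAS and MAPK3 are the widest.

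Parental cells served as a further control. No member passed against them by edgeR: 0 of 7 with guide 1 (0.149% of all genes passed), 0 of 7 with guide 2 (0.0516%) and 0 of 7 with guides 1 and 2 (0.195%). At an unadjusted p under 0.05 the counts were 1, 0 and 1 (3471, 1287 and 1742 of all genes). DESeq2 called no member in these 3 comparisons (3.59%, 0.632% and 1.77% of all genes) and voom in limma called 6, 4 and 3 (52.9%, 32.5% and 21.3% of all genes). Guide 1 cells again had lower values of HRAS (-0.55, SE 0.287, edgeR adjusted p 0.286) and NRAS (-0.50, SE 0.159, edgeR adjusted p 0.179), with no overlap of libraries for either. The share of all genes with separate libraries is not given for this comparison, so this separation is not set against other genes. MAP2K1, lower than the empty vector in guide 1 and guide 2 libraries, was not lower than in parental cells: its log2 fold changes were 0.08, 0.15 and 0.30, the last with a 95% interval of 0.12 to 0.48 (edgeR adjusted p 0.170). MRAS likewise had 0.47, 0.00 and 0.27 against parental cells. These comparisons share the edited libraries with those against the empty vector, and the members' values are set side by side for that reason only.

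When all edited lines were compared with both controls, 0 of 7 members passed by edgeR (1.51% of all genes), with 1 at an unadjusted p under 0.05 (2762 of all genes), 0 by DESeq2 (4.45% of all genes) and 4 by voom in limma (42.0% of all genes). NRAS had -0.28 (SE 0.102, interval -0.50 to -0.06, edgeR adjusted p 0.203) and HRAS -0.21 (SE 0.184, edgeR adjusted p 0.627). RRAS was at 0.13, BRAF at -0.13, MRAS at -0.05, MAPK3 at 0.01 and MAP2K1 at 0.00. The 9 edited and 6 unedited libraries overlapped for every member, as they did for all but 0.281% of genes. The MAP2K1 interval of -0.11 to 0.12 was the narrowest of the 7. This contrast averages 2 controls that differed in MAP2K1 (-0.34 in parental against empty-vector cells). The edited lines had -0.27, -0.19 and -0.04 against the empty vector and 0.08, 0.15 and 0.30 against parental cells.

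The edited lines were also compared with each other. No member passed by edgeR in guide 1 against guide 2 (0 of 7; 0.0401% of all genes), guides 1 and 2 against guide 1 (0 of 7; 0.275%) or guides 1 and 2 against guide 2 (0 of 7; 0.149%). The counts at an unadjusted p under 0.05 were 1, 1 and 0 members (2648, 2270 and 1012 of all genes). DESeq2 gave 0 in each (0.974%, 1.88% and 0.759% of all genes), and voom in limma gave 1, 5 and 0 (20.2%, 46.5% and 15.2%). HRAS was lower with guide 1 than with guide 2 by a log2 fold change of -0.71 (SE 0.288, interval -1.33 to -0.09, edgeR adjusted p 0.321). MAP2K1 was higher with both guides than with guide 1 by 0.22 (interval 0.05 to 0.40, edgeR adjusted p 0.303), in 3 of 3 libraries against 3 of 3. HRAS (0.28) also had separate libraries there on the higher side, and MAPK3 (-0.17) on the lower side. The share of all genes with separate libraries is not given for this comparison.

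Guide 2 replicate 2 held the highest or lowest value of 4 members. It also had the highest score on the first principal component over all genes tested (91.9). The share of all genes with their highest or lowest value in this library was not counted. Against the mean of guide 2 replicates 1 and 3, its level was 2.33 times as high for HRAS, 1.38 times for NRAS and 1.28 times for BRAF. It was 0.499 times as high for RRAS, 0.369 times for MRAS and 0.305 times for MAPK3, and MAP2K1 moved least (0.905 times). HRAS was higher there than in any of the other 14 libraries, and RRAS, MRAS and MAPK3 were lower there than in any of them. Marker sums also differed in this library. In guide 2 replicates 1, 2 and 3, the summed level of 7 basal epithelial markers was 1918, 10950.0 and 2077 CPM, and that of 8 mesenchymal markers was 13937, 3751 and 15639 CPM. FN1 made up most of the mesenchymal sum (11621, 2818 and 13426 CPM). COL1A1 and COL1A2 were higher in replicate 2, unlike the other mesenchymal markers. The sum of 5 epithelial markers was 322, 459 and 319 CPM, and of these only KRT8 was lower in replicate 2 (159, 70.2 and 167 CPM). The basal sum ranged from 2384 to 6566 CPM in parental, 5658 to 10581 in empty-vector, 1810.0 to 2391 in guide 1 and 3387 to 3929 CPM in libraries with both guides. The mesenchymal sum ranged from 8345 to 13786, 13365 to 15173, 14887 to 20686 and 11281 to 11588 CPM in the same groups. CDH1 was at 0.036, 91.4 and 0.043 CPM in guide 2 replicates 1, 2 and 3. The part of this cell state in the members' values was not tested.

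Without guide 2 replicate 2 in the edgeR fit, the fold changes outside guide 2 moved little but more of them passed. HRAS (-0.54, adjusted p 0.0369), NRAS (-0.42, adjusted p 0.0400) and MAP2K1 (-0.28, adjusted p 0.0159) were then lower in guide 1 cells than in the empty vector by edgeR, 3 of 7 members, where 18.1% of all genes passed. Against parental cells, guide 1 cells had lower HRAS (-0.55, edgeR adjusted p 0.0430) and NRAS (-0.50, edgeR adjusted p 0.0270), with 14.5% of all genes passing. MRAS (-0.62, adjusted p 0.0212) and MAP2K1 (-0.36, adjusted p 0.00623) were lower in parental than in empty-vector cells by edgeR (13.9% of all genes). MAP2K1 was higher with both guides than in parental cells (0.30, edgeR adjusted p 0.0421; 2.62% of all genes). Over all edited lines against both controls, HRAS (-0.39, adjusted p 0.0252), NRAS (-0.34, adjusted p 0.0158) and BRAF (-0.18, adjusted p 0.0361) were lower by edgeR, where 18% of all genes passed. For guide 2 against the empty vector no member passed in that fit, with the guide 2 mean from replicates 1 and 3 alone: HRAS turned from 0.18 to -0.36 and MAPK3 from -0.20 to 0.16. MRAS moved from -0.60 to -0.28, so that HRAS then had the lowest fold change, and RRAS stood at 0.29. Guide 1 and guide 2 were closer in HRAS in that fit, with -0.18 in place of -0.71 on the log2 scale.

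Many pairs of members moved together or in opposition over the 15 libraries. Of 21 pairs, 15 had a Pearson correlation of log2 CPM with an adjusted p under 0.05 in a permutation test of 100000 resamples, and 10 had a Spearman correlation that passed; the 15 were all the pairs without MAP2K1, and none of the 6 pairs with MAP2K1 passed by either. The libraries of a genotype are not independent of each other and CPM are shares of a common total, so the p-values describe these libraries only. The share of all gene pairs that pass was not counted, so 15 of 21 is not shown to be particular to the members. The first principal component over all genes tested held 46.4% of the variance. HRAS and MAPK3 had the lowest Pearson correlation over all libraries, with r = -0.89 (permutation p 0.00014, adjusted 0.00262) and rho = -0.62 (permutation p 0.0166, adjusted 0.0388). Leaving out guide 2 replicate 2 and parental replicate 1, the 2 libraries farthest from the median of HRAS, gave r = -0.54. Leaving out guide 2 replicate 2 alone gave -0.78, and deviations from the genotype means gave -0.96 with it and -0.88 without it. The 2 genes were not opposed in every genotype: with both guides, HRAS and MAPK3 had the same order over the 3 libraries. By Spearman correlation RRAS and BRAF were the most opposed pair (rho = -0.78, permutation p 0.00094, adjusted 0.00987).

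NRAS and BRAF were high and low in the same libraries, with r = 0.79 (permutation p 0.0004, adjusted 0.00262), rho = 0.82 (permutation p 0.00032, adjusted 0.00672) and r = 0.79 without the 2 libraries farthest from the NRAS median (guide 1 replicate 2 and parental replicate 1). RRAS opposed both: with NRAS it had r = -0.70 (permutation p 0.00277, adjusted 0.00592) and with BRAF r = -0.76 (permutation p 0.00067, adjusted 0.00262). Without guide 1 replicate 2 and parental replicate 1, RRAS and NRAS had -0.64. Without guide 2 replicate 2 and parental replicate 1, RRAS and BRAF had -0.67. HRAS and NRAS had r = 0.75 (permutation p 0.00075, adjusted 0.00262) and 0.74 without guide 2 replicate 2 and parental replicate 1. Other relations were much weaker without these 2 libraries. MRAS and MAPK3 had r = 0.89 with all libraries and 0.26 without guide 2 replicate 2 and parental replicate 1, RRAS and MRAS had 0.82 and 0.29, and HRAS and MRAS went from -0.76 to 0.04. HRAS and BRAF went from 0.65 to 0.30. Deviations from the genotype means, without guide 2 replicate 2 alone, gave 0.71 for MRAS and MAPK3 and 0.84 for RRAS and MRAS. They gave -0.72 for HRAS and MRAS and 0.48 for HRAS and BRAF. MAP2K1 had r between -0.34 and 0.39 with the other 6 members over all libraries, but its r with HRAS went from -0.03 to 0.76 without guide 2 replicate 2 and parental replicate 1.

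**Figure D3:**
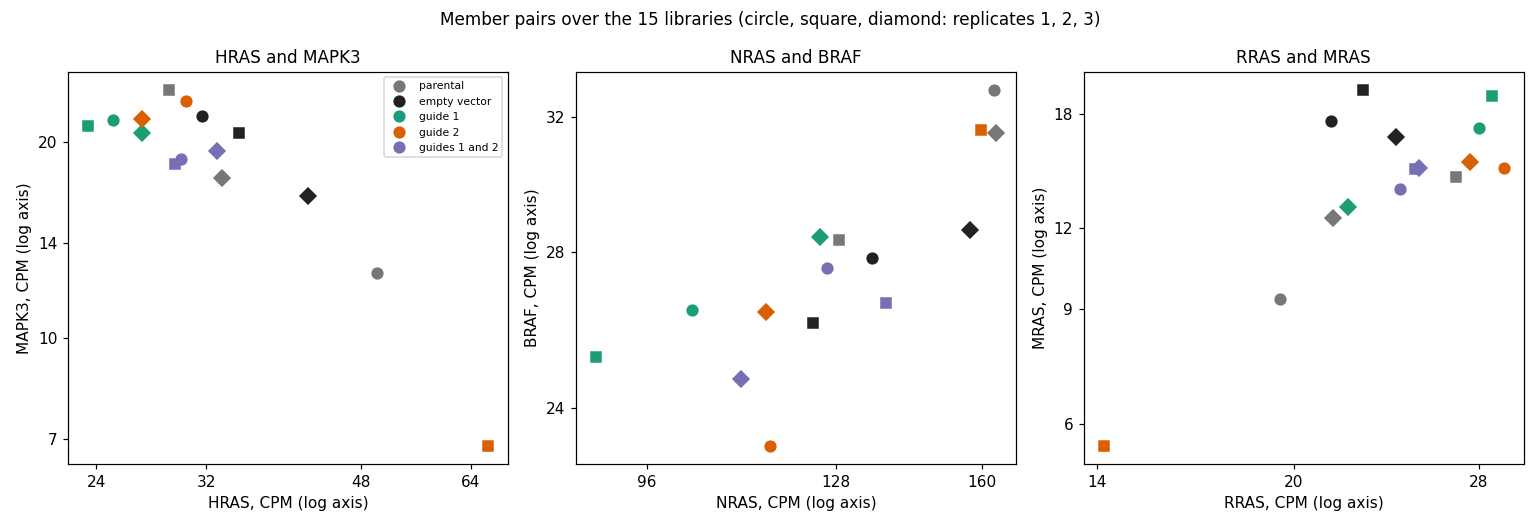
RNA level of 3 pairs of members over the 15 libraries (CPM, both axes logarithmic); colours give the genotype and circles, squares and diamonds replicates 1, 2 and 3. HRAS and MAPK3 are opposed (r = -0.89), NRAS and BRAF move together (r = 0.79), and RRAS and MRAS have r = 0.82. Without the guide 2 square and the parental circle, RRAS and MRAS have r = 0.29.

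The genes whose pattern over the libraries was most like each member were found by Pearson correlation of log2 CPM among 11615 genes with an average log2 CPM of at least 1. They were KCTD15 (r = 0.98) and AGAP3 (0.98) for HRAS, MBNL1 (0.98) and ZNF639 (0.97) for NRAS, ZBTB47 (0.96) and ZNF687 (0.96) for RRAS, and FAM120B (0.98) and ZFAND3 (0.97) for MRAS. For the kinases they were RICTOR (0.96) and LTN1 (0.95) for BRAF, VARS1 (0.94) and POLG (0.93) for MAP2K1, and ZNF76 (0.98) and PLXND1 (0.98) for MAPK3. With Spearman correlation only 1 of these 14 genes, KCTD15, was named again.

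The rest of the pathway was read from 9 lists with 146 genes, of which 129 were tested. Among the close paralogs of the members, found by symbol pattern, 6 of 7 were tested and 0 passed by edgeR in any of the 11 comparisons (up to 2 at an unadjusted p under 0.05). RRAS2, a paralog of RRAS, was at 48.7, 42.4 and 52.9 CPM in guide 1 cells against 77.6, 69.1 and 85.9 CPM in the empty vector, and at 133 CPM in guide 2 replicate 2. Its log2 fold change with guide 1 was -0.70 (SE 0.314, edgeR adjusted p 0.215).

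Over the 9 lists, 13 of 129 genes passed in guide 1 against empty-vector cells (10.1%, against 5.88% of all genes), 1 higher and 12 lower, where 228 of all genes were higher and 798 lower. In guide 2 cells 9 passed (6.98%, against 3.94%), 1 higher and 8 lower (210 and 477 of all genes), and with guides 1 and 2 it was 3 (2.33%, against 0.962%), all lower (47 higher and 121 lower of all genes). In parental cells 6 passed (4.65%, against 4.37%), 1 higher and 5 lower (267 and 495 of all genes). Over all edited lines against both controls 4 passed (3.10%, against 1.51%), all lower (56 higher and 207 lower of all genes): DIRAS1, AFDN, MAPK6 and PIK3CB. The edited and unedited libraries overlapped for each of them. Against parental cells, with guide 1, guide 2 and both guides, MAPK6 had -0.22, -0.04 and -0.04 and AFDN had -0.42, -0.10 and 0.04. PIK3CB had -0.20, -0.12 and -0.10 and DIRAS1 had -1.12, -0.56 and -0.06, and none of these passed. Against parental cells 0, 0 and 1 passed in the same 3 lines by edgeR, with 30, 13 and 14 at an unadjusted p under 0.05. For guide 1 against guide 2, and for both guides against either, 0 passed (25, 16 and 4 unadjusted). These counts depended on single libraries, in fits chosen after seeing the data. Without guide 2 replicate 2, 39, 32, 16 and 21 of 130 genes passed against the empty vector with guide 1, guide 2, both guides and in parental cells (30%, 24.6%, 12.3% and 16.2%, against 18.1%, 14.5%, 6.70% and 13.9% of all genes). Without empty vector replicate 3, 5, 3, 0 and 2 of 129 passed by edgeR (3.88%, 2.33%, 0% and 1.55%, against 1.39%, 0.948%, 0.173% and 0.875% of all genes). With each of the 15 libraries left out in turn, these 2 fits gave the highest and the lowest counts in all 4 comparisons, and other fits gave the same lowest counts: those without guide 1 replicate 2 (for guide 1), without guide 2 replicate 1 or 3 (for guide 2), without any library with both guides (for both guides) and without parental replicate 2 (for parental cells).

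Upstream of the GTPases, none of 11 tested exchange factors and adaptors passed in guide 1 cells (4 at an unadjusted p under 0.05 by edgeR), with a median log2 fold change of -0.15. In guide 2 cells 1 passed: GAB1, a docking adaptor of receptor tyrosine kinases, was lower (8.54 ± 0.978 against 12.2 ± 1.84 CPM, SD, n = 3 each; log2 fold change -0.53, edgeR adjusted p 0.0368). Against the empty vector GAB1 also had -0.45 with guide 1 and -0.30 in parental cells (edgeR adjusted p 0.0581 and 0.215). Of 15 genes for lipid processing and delivery of RAS, 0 passed in any edited line by edgeR (2, 1 and 1 unadjusted). LYPLA2, a thioesterase that removes palmitate, was lower in parental than in empty-vector cells (-0.52, edgeR adjusted p 0.00945). Of 28 tested RAF regulators and scaffolds, SFN, a member of the 14-3-3 family and an epithelial marker also known as stratifin, was lower with guide 1 (97.1 ± 10.7 against 353 ± 105 CPM; -1.88, edgeR adjusted p 0.0148). In parental cells SFN had -1.12 against the empty vector (edgeR adjusted p 0.108). SFN was at 140.2, 369 and 129 CPM in guide 2 replicates 1, 2 and 3, highest in replicate 2 like the basal sum. In guide 1 replicates 1, 2 and 3 SFN was at 93.5, 88.6 and 109 CPM. The basal sum had the opposite order there (2126, 2391 and 1810.0 CPM). The part of cell state in SFN was not tested.

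Beside the RAF branch, 4 of 13 tested RAS effectors were lower in guide 1 cells, with a median of -0.36. AFDN, a junction protein that binds RAS and RAP, had -0.87 (71.1 ± 6.14 against 128.9 ± 22.4 CPM; edgeR adjusted p 0.00424). PIK3CB and PIK3CA, catalytic subunits of PI3-kinase, had -0.40 and -0.44 (edgeR adjusted p 0.0124 and 0.0251), and RGL2, a RAL exchange factor, had -0.48 (edgeR adjusted p 0.0154). In guide 2 cells 3 of these passed: AFDN at -0.56, RGL2 at -0.40 and PIK3CB at -0.32. RGL2 was also lower in parental than in empty-vector cells (-0.42, edgeR adjusted p 0.0291). AFDN, PIK3CA and PIK3CB had -0.46, -0.23 and -0.20 there (edgeR adjusted p 0.0647, 0.240 and 0.173). None of the 4 passed in guide 1 cells against parental cells. Among 15 tested small GTPases close to RAS, RAP2B was lower than the empty vector in all 4 comparisons, by -0.61 with guide 1, -0.38 with guide 2, -0.48 with both guides and -0.53 in parental cells (edgeR adjusted p 0.00565 to 0.0472). DIRAS1, close to the floor of 3 counts, was at 0.163 ± 0.0592 CPM in guide 1 and 0.681 ± 0.153 CPM in empty-vector cells (SD, n = 3 each; -2.05, edgeR adjusted p 0.00699).

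Of 24 tested genes of other MAPK cascades, 4 were lower with guide 1, 2 with guide 2, 2 with both guides and 2 in parental cells. MAPK13, which encodes p38 delta, was at 10.8, 11.2 and 16.5 CPM in the empty-vector libraries and at 3.26 to 7.51 CPM in all other 12. Its log2 fold changes against the empty vector were -1.04, -0.92 and -0.89 in the edited lines and -1.86 in parental cells (edgeR adjusted p 0.000383 to 0.0224), and it was the 1 gene that passed with both guides against parental cells, where it was higher (0.97, edgeR adjusted p 0.0287). MAPK6, which encodes ERK3, was at 186 to 223 CPM in the empty vector and at 119 to 160.2 CPM elsewhere, with -0.74, -0.57, -0.56 and -0.53 in the same order. MAP3K4 (-0.50) and MAP2K4 (-0.33) passed with guide 1, as did 1 of 7 tested kinases after ERK, MKNK1 (-0.31). In parental cells against the empty vector these 3 genes had -0.23, -0.18 and -0.31 (edgeR adjusted p 0.240, 0.255 and 0.0533). With guide 1 against parental cells MKNK1 had -0.01. All 4 comparisons share the empty-vector libraries, so their values are given side by side only.

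Among 10 transcripts that report ERK activity, 1 passed with guide 1, 1 with guide 2, 0 with both guides and 1 in parental cells, in each case SPRY2, a feedback inhibitor of receptor tyrosine kinase signalling. SPRY2 was higher than in the empty vector by 0.37, 0.61 and 0.44 on the log2 scale in these 3 groups (edgeR adjusted p 0.0409, 0.00524 and 0.0234). With both guides it had 0.42 (edgeR adjusted p 0.0566). Against parental cells SPRY2 had -0.07, 0.17 and -0.02 in the 3 edited lines, and none passed. Over all edited lines against both controls, 9 of the 10 transcripts were higher and 0 passed by edgeR. The share of all genes that were higher at any p was not counted. Of the 10, 6 had an unadjusted p under 0.05 there by edgeR (2762 of all 17457 genes tested). The median log2 fold change of the 10 was 0.23, against 0.01 over all genes. In the edited lines the median was 0.26, 0.24 and 0.24 against parental cells and 0.09, 0.15 and 0.18 against the empty vector. In parental cells against the empty vector it was -0.06.

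**Figure D4:**
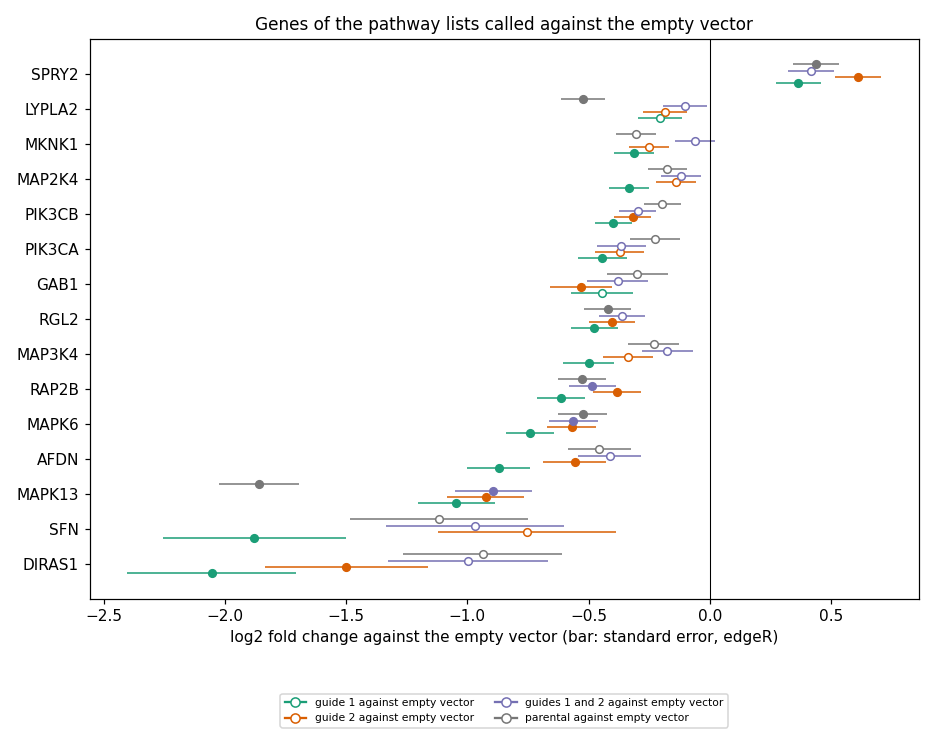
Log2 fold change against the empty vector (horizontal axis; bars are standard errors, edgeR) of the 15 pathway genes that passed in at least 1 of the 4 comparisons shown; filled points have an adjusted p under 0.05. SPRY2 lies above 0 in all 4 comparisons, RAP2B, MAPK6 and MAPK13 are filled and below 0 in all 4, and DIRAS1 has the lowest value (-2.05 with guide 1).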

How the data were processed

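The authors deposited whole-number read counts per gene and CPM for 15 libraries. The deposited CPM equalled count divided by library total, to within 4.91e-11. Per the submitters' processing notes, Trim Galore 0.6.0, STAR 2.7.8a and GRCh38 were used; the counter, annotation and strand setting are not given in the sources used here. Per the labels, the KAPA mRNA HyperPrep kit was used on poly(A) RNA. A symbol was matched to 60357 of 60721 gene identifiers.

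Counts were tested with edgeR 4.0.16 in R 4.3.3 (filterByExpr, TMM scaling, 1 group-means model over 15 libraries with 10 residual degrees of freedom, two-sided quasi-likelihood tests, Benjamini-Hochberg adjustment over 17457 genes). For correlations, CPM were put on the log2 scale after adding a prior count (2). Alternatives were RLE scaling, no filter, a replicate block, DESeq2 1.42.0, voom with quality weights in limma 3.58.1, only the libraries compared, and each library left out. The edgeR script was tested on simulated data. Genes named are the members, NF1, genes of the lists that passed, and the 2 genes most like each member; RRAS2, the markers and the overlapping genes were named after their values were seen. The members and lists were chosen with earlier results of these data known. Replicate pairs differed beyond sampling noise in 24.6% to 76.8% of genes, so each library counted as 1.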

Additional observations from a re-analysis of the deposited data

How the results depend on the processing

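For 39 fold changes of members, 731 of 812 values under the alternatives kept direction and side of the threshold, 32 passed only there, 10 passed only in the main test and 39 changed sign. The cause of these differences was not tested.

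Members passing per comparison moved most with voom in limma: 4 for guide 1, 2 for guide 2, 1 for both guides and 4 for parental cells against the empty vector; 6, 4 and 3 for the edited lines against parental cells; 4 for edited lines against both controls; 1 for guide 1 against guide 2 and 5 for both guides against guide 1. In the same order, voom called 42.5%, 33.2%, 26.7% and 36.3% of all genes, then 52.9%, 32.5% and 21.3%, then 42.0%, then 20.2% and 46.5%. DESeq2 gave 1 for guide 1 against the empty vector (MAP2K1, -0.28, adjusted p 0.0340). A fit of only the libraries compared gave 1 for guide 1 (HRAS, -0.52, edgeR adjusted p 0.0201) and 1 for both guides (MRAS, -0.34, edgeR adjusted p 0.0181), where it called 15.8% and 18.7% of all genes. Without the filter on low counts, 0 passed for parental cells. With each library left out in turn, the counts ranged from 0 to 3 for guide 1 and 0 to 2 for parental cells against the empty vector, 0 to 2 for guide 1 and 0 to 1 for both guides against parental cells, and 0 to 3 for edited lines against both controls. They stayed at 0 in the other 6 comparisons. The highest counts were those without guide 2 replicate 2. Without guide 1 replicate 3, MAP2K1 (-0.32, edgeR adjusted p 0.0415) passed in guide 1 cells against the empty vector and NRAS (-0.64, edgeR adjusted p 0.0436) against parental cells. In that fit 5.46% and 7.64% of all genes passed in these comparisons, against 5.88% and 0.149% in the main test.

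Same-numbered libraries did not deviate together on average (mean correlation -0.05 over 30 pairs, range -0.75 to 0.28, against 0.03 over 60 other pairs), and the main test did not pair them. Single libraries far from their group weigh on these correlations. Whether equal numbers shared a culture or preparation was not tested. With the replicate block the count of members that passed stayed at 0 of 7 for each edited line and 1 of 7 for parental cells against the empty vector (MAP2K1, edgeR adjusted p 0.0358). MAPK3 over edited lines against both controls became -0.00101 with the block.

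These values changed sign. For edited lines against both controls, MAP2K1 was -0.00289 with RLE scaling, -0.00959 with voom and -0.00379 with DESeq2, and MRAS was 0.0458 with voom. With voom, HRAS was -0.23 and MAPK3 was 0.0862 for guide 2, and HRAS was -0.0401 for parental cells, each against the empty vector. Over the fits that each left out 1 library, edited lines against both controls ranged from -0.0233 to 0.0318 for MAP2K1, -0.0885 to 0.14 for MAPK3 and -0.13 to 0.0512 for MRAS. Guide 1 against the empty vector ranged from -0.02003 to 0.16 for MAPK3 and -0.27 to 0.01996 for MRAS. Guide 2 ranged from -0.18 to 0.041 for BRAF, -0.36 to 0.40 for HRAS, -0.49 to 0.16 for MAPK3 and -0.15 to 0.29 for RRAS. Both guides ranged from -0.0926 to 0.018 for MAP2K1. Parental cells ranged from -0.24 to 0.17 for HRAS, -0.42 to 0.0576 for MAPK3 and -0.19 to 0.0646 for RRAS.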
